A study of Mus musculus with 8 samples.

Results

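The 10 genes described here encode the PGC-1 coactivators (Ppargc1a, Ppargc1b and Pprc1), the MEF2 factors (Mef2a, Mef2c and Mef2d) and nuclear regulators of mitochondrial biogenesis (Esrra, Nrf1, Gabpa and Tfam). They were chosen by symbol from the 51822 gene symbols of 8 RNA sequencing libraries, and all 10 were found. Osteoblast progenitors were cultured in osteogenic medium with ascorbic acid, dexamethasone and β-glycerophosphate. They received either DMSO (the vehicle, here control) or 1 μM LAMZ (locamidazole, an aminoindazole compound) and were harvested on day 7 or day 14 of culture. Each of the 4 combinations had 2 libraries. The sample labels name the cells as MC3T3-E1, a clonal osteoblastic line from mouse calvaria, whereas the methods of the study name calvarial cells, which were taken from neonatal mice and can hold several cell types. The column header in the file of day 7 LAMZ replicate 1 does not name LAMZ, unlike those of the other LAMZ libraries, and its group was taken from its label. The labels do not say whether the libraries of a group came from separate cultures. The p-values therefore measure only the spread between these libraries, which may be technical.

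PGC-1α, encoded by Ppargc1a, is a transcriptional coactivator: it does not bind DNA itself but is recruited by nuclear receptors and other factors to genes for oxidative metabolism. In muscle, calcium signals act through calcineurin and calcium/calmodulin-dependent kinases on CREB and on the MEF2 factors, which are known to drive Ppargc1a transcription. PGC-1α then works with ERRα, NRF1 and GABP on nuclear genes for mitochondrial proteins, among them Tfam, whose product packages and transcribes mitochondrial DNA. The comparisons below address whether the RNA of these regulators differed between control and LAMZ-treated cultures on either day.

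RPKM is the number of reads of a gene scaled to its length and to the mapped reads of its library, so that levels can be compared between genes. By an estimate from the RPKM values themselves, the libraries held from 3463538 to 5832101 mapped reads, and replicate libraries of a group correlated at 0.961 to 0.98 across genes on the log scale. The defining markers of osteoblasts were present in every library. The summed RPKM of 10 such markers was 7243 to 8980 in day 7 control cells, 10450 to 11070 in day 7 LAMZ-treated cells, 10750 to 11150 in day 14 control cells and 17030 to 18970 in day 14 LAMZ-treated cells. Most of each sum was Col1a1 and Col1a2, with means of 4902 and 2767 in day 7 control cells, and neither was called at day 7. Markers of macrophages and other myeloid cells differed between the groups. The summed RPKM of the 15 myeloid markers found was 467 to 606 in day 7 control cells and 1134 to 1175 in day 14 control cells, whereas it was 7.73 to 9.28 and 7.31 to 7.96 in the LAMZ-treated cells of the same days. C1qa, C1qb, C1qc, Tyrobp, Laptm5 and Mpeg1 were at 0 in all 4 LAMZ libraries. Lymphocyte markers summed to 0.0666 to 1.26 over all libraries. Endothelial markers summed to 1.515 to 2.874 in control cells and 0.767 to 0.902 in LAMZ-treated cells, and Tek, the 1 of these 6 that was tested, was called lower on both days (adjusted p = 0.0153 and 0.0217, limma). The day 7 difference in the sum lay mostly in Tek, with means of 1.48 in control and 0.115 in LAMZ libraries. Cdh5 had 0.522 and 0.484 at day 7 and 0.969 and 0.285 at day 14. Pecam1, Kdr and Emcn were near 0 and slightly higher with LAMZ at day 7. The day 7 call of Tek was lost without day 7 control replicate 1 or either day 7 LAMZ library, and its day 14 call without any one of the day 14 libraries. Adipocyte markers summed to 11.5 to 23.5 at day 7 and 27.7 to 73.8 at day 14 in control cells, and to 4.09 to 4.82 in LAMZ-treated cells. The highest sum was in day 14 control replicate 2, where Fabp4 had 41.2 against 6.44 in replicate 1. Of the 4 tested adipocyte markers, 1 (Cebpa) was called lower at day 7 and 3 (Adipoq, Fabp4 and Cebpa) at day 14 by limma. In bulk RNA, fewer cells of a type and less RNA per cell cannot be told apart.

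The bases upstream of Mef2c and Ppargc1a are shown because Mef2c was the member called changed with LAMZ and Ppargc1a is the gene that the calcium pathway is known to control. Each run holds the 250 bases before a RefSeq start on GRCm38.p6, written 5′ to 3′ on the strand of the gene, and capitals mark a match to one of the motifs searched. Mef2c has 3 such windows, at chr13:83503784-83504033, chr13:83523406-83523655 and chr13:83573357-83573606 on the plus strand, and Ppargc1a has 1, at chr5:51567726-51567975 on the minus strand.
Mef2c, start 1: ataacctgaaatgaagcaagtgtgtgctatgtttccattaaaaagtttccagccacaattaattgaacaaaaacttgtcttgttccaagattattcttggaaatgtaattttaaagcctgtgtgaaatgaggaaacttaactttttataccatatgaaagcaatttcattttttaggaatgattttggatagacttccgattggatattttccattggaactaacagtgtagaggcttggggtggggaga
Mef2c, start 2: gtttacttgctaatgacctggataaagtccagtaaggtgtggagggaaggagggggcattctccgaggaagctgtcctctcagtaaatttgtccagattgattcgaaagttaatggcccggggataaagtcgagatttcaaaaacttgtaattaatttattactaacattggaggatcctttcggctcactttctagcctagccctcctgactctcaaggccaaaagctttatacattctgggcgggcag
Mef2c, start 3: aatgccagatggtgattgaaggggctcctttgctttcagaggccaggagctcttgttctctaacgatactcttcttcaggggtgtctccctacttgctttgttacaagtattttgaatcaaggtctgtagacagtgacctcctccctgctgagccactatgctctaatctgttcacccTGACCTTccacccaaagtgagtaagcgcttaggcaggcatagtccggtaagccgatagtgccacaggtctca
Ppargc1a: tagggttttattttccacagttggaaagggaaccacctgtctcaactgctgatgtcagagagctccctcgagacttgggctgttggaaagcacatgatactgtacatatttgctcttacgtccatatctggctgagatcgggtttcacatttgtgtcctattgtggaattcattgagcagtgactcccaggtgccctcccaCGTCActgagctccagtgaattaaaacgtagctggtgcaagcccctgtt
In the Ppargc1a window, the capitals mark a CRE half-site (TGACG, on the opposite strand), the core of the element that CREB binds, 49 to 45 bases before the start. This match was found in none of the other 11 windows of the members, but 17.8% of all 32851 windows hold it. In the third Mef2c window, the capitals mark an ERR half-site (AAGGTCA, on the opposite strand), which 4.08% of all windows hold. The NRF1 core GCATGCGC was found in the Esrra window (2.26% of all windows), the GABP core CCGGAAGT in the Tfam window (2.88%) and a MEF2 site in the second Nrf1 window (2.92%). Both strands were searched in the 12 windows of the 9 members that have one. The RPKM of a gene takes reads from all its starts together, so the data do not say which Mef2c start was used.

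The members spanned a wide range of levels, with the MEF2 factors highest and Ppargc1a lowest in the mean over all libraries of both treatments. The mean RPKM over the 8 libraries was 13.3 for Mef2a, 12.4 for Mef2d and 10.3 for Mef2c. Below them came Pprc1 with 5.46, Esrra with 5.41 and Gabpa with 4.91, and then Tfam with 2.34 and Nrf1 with 2.00. Last came 0.372 for Ppargc1b and 0.139 for Ppargc1a. Within each of these 4 steps, the ranges of neighbouring genes over the libraries overlapped. Across steps, the range of Mef2c overlapped those of Pprc1, Esrra and Gabpa, and that of Mef2d overlapped that of Esrra. In day 7 control cells, the mean of Mef2c (4.77) lay below those of Pprc1 (6.36) and Esrra (5.92). Mef2a had a higher mean RPKM than 81.5% of the 12514 genes tested, Gabpa than 54.7% and Nrf1 than 26.1%. Ppargc1a and Ppargc1b stayed under an RPKM of 1 in all 8 libraries and were not tested, since the filter on low values asked for 2 libraries with an RPKM of 1 or more. The other 8 members reached an RPKM of 1 in every library.

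**Figure D1:**
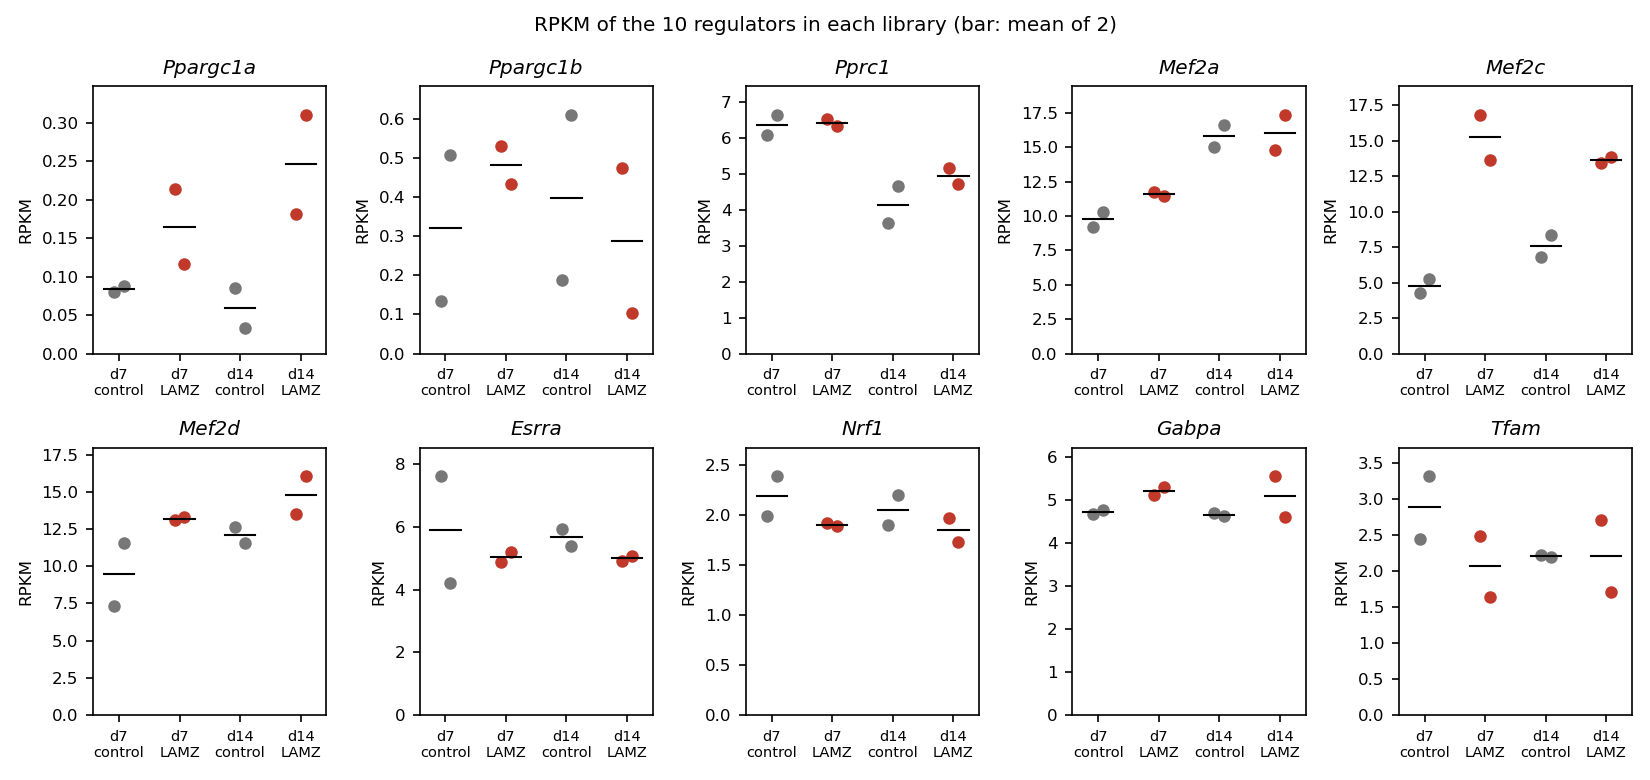
RPKM (y axis, linear from 0, with its own scale in each panel) of each of the 10 regulators in the 2 libraries of each group (x axis; d7 and d14 are day 7 and day 14), with points for libraries, grey for control and red for LAMZ, and a bar for the mean of 2. Mef2c lies between 13.4 and 16.8 in the 4 LAMZ libraries and between 4.29 and 8.33 in the 4 control libraries. With the days pooled, LAMZ and control libraries of Esrra, Nrf1, Gabpa and Tfam overlap, but within a day Gabpa and Nrf1 are apart at day 7 and Esrra at day 14.

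Mef2c (ENSMUSG00000005583.16, chromosome 13, 83504034 to 83667080, plus strand) was higher with LAMZ on both days. It encodes a MADS-box factor of muscle, neural, endothelial and immune cells that also acts in chondrocytes and osteocytes. At day 7, its RPKM was 4.29 and 5.25 in the control libraries (185 and 208 reads) and 16.8 and 13.7 in the LAMZ libraries (822 and 815 reads). At day 14, it was 6.80 and 8.33 in the control libraries (418 and 431 reads) and 13.4 and 13.9 in the LAMZ libraries (896 and 774 reads). The LAMZ libraries of each day all lay above the control libraries of either day. The group means were 4.77 ± 0.679 (SD, n = 2) and 15.3 ± 2.24 (SD, n = 2) at day 7, a ratio of 3.20. At day 14, they were 7.57 ± 1.08 (SD, n = 2) and 13.6 ± 0.303 (SD, n = 2), a ratio of 1.80. On the log2(RPKM + 1) scale, which understates changes of low genes, Mef2c rose by 1.49 at day 7 (SE 0.153, 95% interval 1.14 to 1.85, adjusted p = 0.000971, limma). It rose by 0.78 at day 14 (SE 0.153, 95% interval 0.42 to 1.13, adjusted p = 0.00908, limma), and by 1.14 averaged over both days (SE 0.108, adjusted p = 0.000234, limma).

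The day 7 rise of Mef2c passed the threshold under all 21 alternative settings, with log2 fold changes of 1.05 to 1.68. The day 14 rise kept its direction in all 21 and its call in 18. Its adjusted p was 0.0614 when libraries were rescaled to the same sum, 0.0578 without day 14 control replicate 1 and 0.0575 without day 14 LAMZ replicate 2 (limma). The rise was numerically smaller at day 14, but the difference between the days, −0.71 (SE 0.217, 95% interval −1.21 to −0.21), did not pass the threshold (adjusted p = 0.172, limma). Mef2c is also known from myeloid cells, and the myeloid markers moved the other way: 13 of the 15 were called lower with LAMZ at day 7 and 14 of the 15 at day 14. Mef2c was thus higher, and the summed level of these markers lower, in the LAMZ libraries than in the control libraries. Lyz2, a lysozyme gene, made up most of what was left in the LAMZ libraries (5.29 to 8.20 RPKM). The part of the control cultures' myeloid RNA in their Mef2c level was not tested. Of the 10 osteoblast markers, 6 were called higher with LAMZ on each day. Col1a2, Bglap and Bglap2 were called on neither day, and the change was −0.06 for Col1a2 at day 7 and −0.14 for Bglap at day 14. The part of the osteoblast markers in the Mef2c result was not tested.

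Mef2d and Mef2a, the other MEF2 factors measured, were not called changed by LAMZ on either day. Mef2d (ENSMUSG00000001419.17, chromosome 3, 88142372 to 88172086, plus strand), which is expressed in most cell types, had an RPKM of 7.36 and 11.5 in control and 13.1 and 13.3 in LAMZ libraries at day 7 (166 to 414 reads). At day 14, it had 12.6 and 11.6 in control and 13.5 and 16.1 in LAMZ libraries (313 to 471 reads). The LAMZ libraries lay above the control libraries of the same day on both days. The change was 0.47 at day 7 (SE 0.190, 95% interval 0.03 to 0.91, adjusted p = 0.153, limma). It was 0.26 at day 14 (95% interval −0.18 to 0.70, adjusted p = 0.357, limma) and 0.37 averaged over both days (adjusted p = 0.0755, limma). The average was called under 3 of 20 alternatives: by voom on recovered reads (0.40, adjusted p = 0.0178), centred on the median (0.52, adjusted p = 0.0328, limma) and without day 7 control replicate 2 (0.51, adjusted p = 0.00981, limma). Day 7 control replicate 1 was the lowest Mef2d library, and without day 7 control replicate 2 the day 7 change was 0.76 and passed the threshold (adjusted p = 0.0275, limma).

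Mef2a (ENSMUSG00000030557.17, chromosome 7, 67231163 to 67372858, minus strand), the member with the highest mean over all libraries, differed more between the days than between the treatments. Its RPKM was 9.19 and 10.3 in control and 11.8 and 11.5 in LAMZ libraries at day 7 (363 to 626 reads). At day 14 it was 15.0 and 16.6 in control and 14.8 and 17.4 in LAMZ libraries (786 to 902 reads). The treatments did not overlap at day 7 but did at day 14. The change with LAMZ was 0.23 at day 7 (SE 0.126, 95% interval −0.06 to 0.53, adjusted p = 0.278, limma) and 0.02 at day 14 (SE 0.126, 95% interval −0.27 to 0.31, adjusted p = 0.930, limma), and the latter turned negative under 4 of 21 alternatives.

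Ppargc1a (ENSMUSG00000029167.13, chromosome 5, 51454250 to 51567726, minus strand) was measured by so few reads that its values are given as reads first. At day 7, there were 2 and 2 reads in the control libraries and 6 and 4 in the LAMZ libraries. At day 14, there were 3 and 1 reads in the control libraries and 7 and 10 in the LAMZ libraries. Every LAMZ library thus had more reads than every control library, and all 4 control libraries were at or under the floor of 3 reads. In RPKM, the control libraries had 0.0805, 0.0876, 0.0848 and 0.0336 and the LAMZ libraries 0.213, 0.116, 0.182 and 0.311 in the same order of days and replicates, where 3 reads correspond to 0.0780 to 0.131. A single library is imprecise at this depth: the exact 95% Poisson interval is 0.0253 to 5.57 for 1 read and 4.80 to 18.4 for 10 reads, and such intervals cover counting error only. The ratio of LAMZ to control from summed reads at equal depth was 1.91 at day 7 (10 against 4 reads, 95% interval 0.551 to 8.34). It was 3.92 at day 14 (17 against 4 reads, 95% interval 1.28 to 16.0) and 2.86 over both days (27 against 8 reads, 95% interval 1.27 to 7.29). The interval held 1 at day 7 and lay above it at day 14. These intervals leave out the spread between cultures. Relabelling libraries within each day gave an exact two-sided permutation p of 0.0556 over 36 relabelings, the smallest that this design allows. Mef2c and Mef2d gave the same p, as does any gene whose LAMZ libraries lie on the same side of the control libraries on both days. On a single day, LAMZ libraries lay above control libraries for 20.4% of all tested genes at day 7 and 20.1% at day 14. The share for both days together is not given.

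Without the filter on low values, limma gave Ppargc1a a log2 fold change of 0.23 at day 14 (SE 0.0934, unadjusted p = 0.0424, adjusted p = 0.232) and of 0.10 at day 7 (adjusted p = 0.704). At this depth, the day 7 counting interval of Ppargc1a given above did not exclude a change in either direction, and the added 1 in log2(RPKM + 1) compresses changes at such low levels. Other genes are annotated within its span (Gm42614, Gm42615, Gm43605 and, on the other strand, Gm42613). Overlap of exons was not checked, and strand use in the counting is not given in the sources used here. Whether these genes share its reads was not tested.

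Ppargc1b (ENSMUSG00000033871.14, chromosome 18, 61298136 to 61400431, minus strand) encodes PGC-1β, which shares the ERRα and NRF1 partners of PGC-1α. Its libraries had 2 and 7 reads in control and 9 and 9 in LAMZ at day 7, and 4 and 11 in control and 11 and 2 in LAMZ at day 14. Treatments overlapped at day 14 and, in RPKM, also at day 7 (0.133 and 0.507 in control, 0.529 and 0.433 in LAMZ libraries). Replicates of one group differed as much as the treatments did. The RPKM ranged from 0.103 to 0.610, and the ratio of LAMZ to control was 1.53 at day 7 (95% interval 0.651 to 3.86), 0.800 at day 14 (95% interval 0.350 to 1.80) and 1.10 over both days (95% interval 0.622 to 1.95), with an exact permutation p of 0.944. Its span holds the microRNA gene Mir378a on the same strand. Overlap of exons was not checked, and whether reads of Mir378a count for Ppargc1b was not tested.

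**Figure D2:**
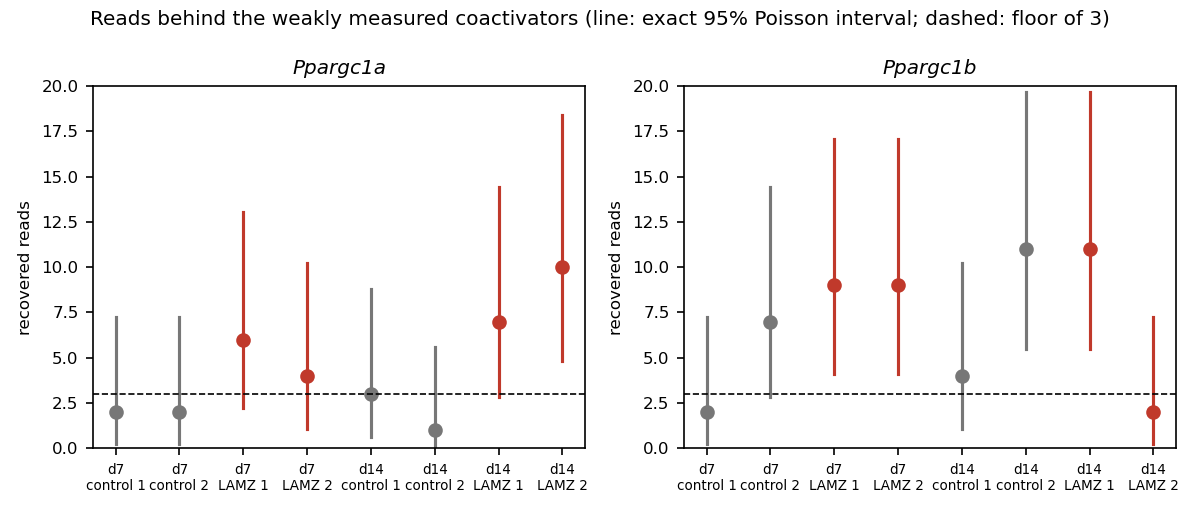
Reads (y axis, linear) recovered for Ppargc1a (left) and Ppargc1b (right) in each of the 8 libraries (x axis), grey for control and red for LAMZ, with the exact 95% Poisson interval as a line and the floor of 3 reads dashed. The 4 control libraries of Ppargc1a hold 1 to 3 reads and its 4 LAMZ libraries 4 to 10, with intervals that overlap between single libraries, and Ppargc1b ranges from 2 to 11 reads in either treatment.

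Pprc1 (ENSMUSG00000055491.14, chromosome 19, 46044886 to 46072915, plus strand) encodes PRC, the PGC-1-related coactivator that is known from proliferating cells, and was the only coactivator of the family with ample reads (146 to 248 per library). Its RPKM was 6.07 and 6.65 in control and 6.52 and 6.33 in LAMZ libraries at day 7, and 3.62 and 4.65 in control and 5.16 and 4.71 in LAMZ libraries at day 14. At day 7 the LAMZ libraries lay between the control libraries, and at day 14 they lay above them. The change was 0.01 at day 7 (95% interval −0.29 to 0.32, adjusted p = 0.962, limma) and 0.22 at day 14 (95% interval −0.09 to 0.53, adjusted p = 0.286, limma). The day 14 change passed the threshold only when libraries were centred on their median (0.41, adjusted p = 0.0485, limma), among 21 alternatives.

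None of the 4 nuclear regulators of mitochondrial biogenesis was called changed with LAMZ by limma on RPKM as deposited or by voom on recovered reads. None had an unadjusted p under 0.05 on either day. With libraries rescaled to the same sum, the average over both days was called lower for Esrra (−0.43, adjusted p = 0.0288), Nrf1 (−0.34, adjusted p = 0.0308) and Tfam (−0.41, adjusted p = 0.048, all limma). Without day 7 control replicate 2, it was called for Esrra (−0.33, adjusted p = 0.0351, limma). Esrra (ENSMUSG00000024955.14, chromosome 19, 6910977 to 6921813, minus strand), which encodes the orphan receptor ERRα, had an RPKM of 7.63 and 4.21 in control and 4.89 and 5.22 in LAMZ libraries at day 7, and 5.94 and 5.40 in control and 4.93 and 5.08 in LAMZ libraries at day 14 (37 to 81 reads). The control libraries of day 7 were farther apart than any others, and both LAMZ libraries of that day lay between them. The change was −0.15 on each day (95% intervals −0.64 to 0.35 and −0.64 to 0.34, adjusted p = 0.705 and 0.653, limma), and at day 7 it was 0.22 without day 7 control replicate 1. Trmt112 overlaps Esrra on the other strand.

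Nrf1 (ENSMUSG00000058440.14, chromosome 6, 30047988 to 30153458, plus strand), here nuclear respiratory factor 1, had an RPKM of 1.99 and 2.39 in control and 1.92 and 1.89 in LAMZ libraries at day 7, and 1.90 and 2.19 in control and 1.97 and 1.73 in LAMZ libraries at day 14 (77 to 118 reads). All 8 libraries lay between 1.73 and 2.39. The change was −0.13 at day 7 (95% interval −0.46 to 0.20) and −0.10 at day 14 (95% interval −0.43 to 0.23), with adjusted p of 0.598 and 0.667 (limma).

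Gabpa (ENSMUSG00000008976.16, chromosome 16, 84834925 to 84863779, plus strand) encodes the DNA-binding subunit of GABP, also called NRF-2. Its RPKM was 4.66 and 4.77 in control and 5.11 and 5.30 in LAMZ libraries at day 7, and 4.68 and 4.63 in control and 5.55 and 4.61 in LAMZ libraries at day 14 (94 to 184 reads). The treatments were apart at day 7 but by little. The change was 0.12 at day 7 (95% interval −0.16 to 0.40, adjusted p = 0.573, limma) and 0.10 at day 14 (95% interval −0.18 to 0.38, adjusted p = 0.589, limma). Atp5j overlaps Gabpa on the other strand.

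Tfam (ENSMUSG00000003923.14, chromosome 10, 71225464 to 71238280, minus strand), the mitochondrial transcription factor, had an RPKM of 2.45 and 3.32 in control and 2.48 and 1.64 in LAMZ libraries at day 7, and 2.22 and 2.19 in control and 2.70 and 1.71 in LAMZ libraries at day 14 (37 to 70 reads). The treatments overlapped on both days, and the lowest value on each day was in LAMZ replicate 2. The change was −0.35 at day 7 (SE 0.211, 95% interval −0.83 to 0.14, adjusted p = 0.332, limma) and −0.02 at day 14 (SE 0.211, 95% interval −0.51 to 0.47, adjusted p = 0.962, limma). At this depth and replication, these intervals did not exclude changes of Tfam in either direction.

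Of the 8 members tested, 1 (Mef2c) was called at day 7, where 12.8% of all tested genes were called (4.35% higher and 8.49% lower). At day 14, it was again 1 of 8 (Mef2c), where 23.0% were called (6.96% higher and 16.0% lower), and averaged over both days 1 of 8, where 29.5% were called. For the difference between the days, no member was called by limma or by voom on recovered reads, and 1 (Mef2c) had an unadjusted p under 0.05. There, 0.623% of all tested genes were called. LAMZ and control libraries did not overlap in the higher direction for 4 members at day 7 (Mef2a, Mef2c, Mef2d and Gabpa) and 3 at day 14 (Pprc1, Mef2c and Mef2d), beside 20.4% and 20.1% of all tested genes. They did not overlap in the lower direction for 1 member on each day (Nrf1 at day 7 and Esrra at day 14), beside 35.9% and 44.2%. Over the 8 members, the median change on the log2 scale was 0.07 at day 7 and 0.06 at day 14, beside −0.08 and −0.15 over all tested genes. The balance of all calls depended on the scaling: 33.9% of the genes called at day 7 and 30.3% at day 14 were higher with LAMZ. This share was 8.69% and 8.16% with libraries rescaled to the same sum, and 53.5% and 56.3% with libraries centred on their median. These settings moved the median of all genes to −0.31 and −0.43, and to 0.03 and 0.04.

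**Figure D3:**
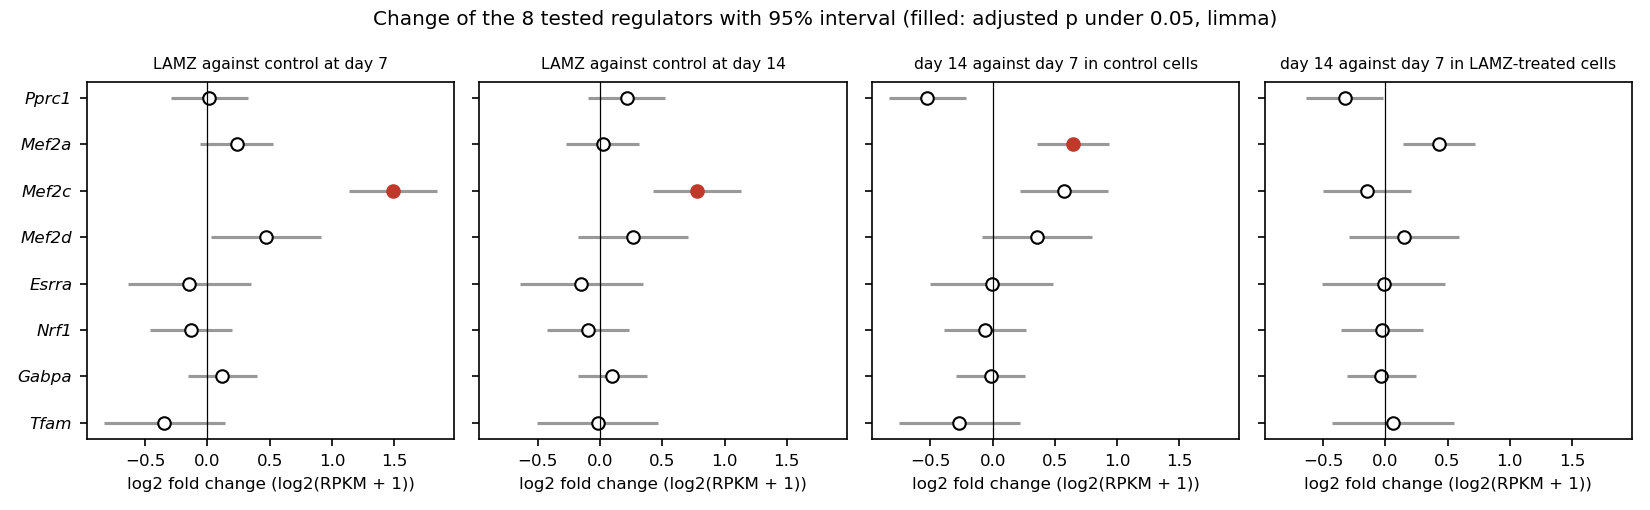
Log2 fold change on the log2(RPKM + 1) scale (x axis) with its 95% interval for the 8 tested regulators (y axis) in 4 comparisons, with filled red points for an adjusted p under 0.05 in limma. Mef2c is called with LAMZ at day 7 (1.49) and at day 14 (0.78), Mef2a is called between the days in control cells (0.64), and the other points are open.

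With time in culture, Mef2a rose in control cells, from a mean RPKM of 9.75 ± 0.790 (SD, n = 2) at day 7 to 15.8 ± 1.13 (SD, n = 2) at day 14, a log2 change of 0.64 (SE 0.126, 95% interval 0.35 to 0.94, adjusted p = 0.0334, limma). It was the 1 member of 8 called there, where 4.86% of all tested genes were called. This call was close to the threshold: it was lost without any one of the 8 libraries (adjusted p 0.0501 to 0.132), with no filter on low values (0.0673) and with the 4 control libraries alone (0.156, limma). In LAMZ-treated cells, Mef2a went from 11.6 ± 0.214 (SD, n = 2) to 16.1 ± 1.84 (SD, n = 2), a change of 0.43 (SE 0.126, adjusted p = 0.0586, limma). No member was called in LAMZ-treated cells by limma, although 2 (Mef2a and Pprc1) had an unadjusted p under 0.05. By voom on recovered reads, 1 (Mef2a) was called (adjusted p = 0.0177). In the limma fit, 14.4% of all tested genes were called.

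Mef2c and Pprc1 were not called between the days in control cells by limma, but both were by voom on recovered reads (0.66, adjusted p = 0.0193, and −0.64, adjusted p = 0.0257). Rescaling to the same sum also gave a call for Mef2c (0.80, adjusted p = 0.0289, limma). In the limma fit, Mef2c changed by 0.57 there (95% interval 0.22 to 0.92, adjusted p = 0.077, limma) and by −0.14 in LAMZ-treated cells (95% interval −0.50 to 0.21, adjusted p = 0.559, limma). In control cells, 11 of the 15 myeloid markers were called higher at day 14 than at day 7, and their part in the Mef2c value was not tested. Pprc1 changed by −0.53 in control cells (95% interval −0.83 to −0.22, adjusted p = 0.0676, limma) and by −0.32 in LAMZ-treated cells (95% interval −0.63 to −0.01, adjusted p = 0.143, limma). The days did not overlap in control cells for 3 members in the higher direction (Mef2a, Mef2c and Mef2d) and 2 in the lower (Pprc1 and Tfam), beside 21.0% and 28.5% of all tested genes. In LAMZ-treated cells, they did not overlap for 2 in the higher direction (Mef2a and Mef2d) and 1 in the lower (Pprc1), beside 21.4% and 41.4%. The comparisons with LAMZ and with time share libraries, so they are not independent of each other.

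The genes around the members are given by lists. In the same libraries, the summed RPKM of the myeloid and of the adipocyte markers was lower with LAMZ. The part of these markers in the changes of the listed genes was not tested. The limma calls below stand beside 4.35% of all tested genes called higher and 8.49% lower at day 7, 6.96% and 16.0% at day 14, and medians over all tested genes of −0.08 and −0.15. These shares do not apply to the counts by unadjusted p or by voom on recovered reads, for which no share over all genes is given by direction. At day 7, voom called 1982 of 12167 genes and limma 1607 of 12514. Upstream of the members are the genes that carry calcium signals to MEF2 and CREB. Of 26 tested genes (kinases, calcineurin subunits, NFAT factors, class IIa histone deacetylases and CREB coactivators), none was called higher and 2 were called lower (7.69%) on each day by limma, with a median change of −0.06 at day 7 and −0.16 at day 14. Of these genes, 1 was higher at an unadjusted p under 0.05 on each day, and 4 were lower at day 7 and 9 at day 14. Voom on recovered reads called 0 higher on either day, and 2 lower at day 7 and 8 at day 14. Hdac7, a class IIa histone deacetylase that binds and represses MEF2 factors, fell from 10.1 ± 0.806 to 6.06 ± 0.0712 RPKM (SD, n = 2 each) at day 7 and from 9.85 ± 0.924 to 6.06 ± 1.38 (SD, n = 2 each) at day 14 (adjusted p = 0.0311 and 0.0226, limma). Camkk2, a kinase that activates other calmodulin-dependent kinases and AMPK, fell from 5.69 ± 0.252 to 3.47 ± 0.229 at day 7 (adjusted p = 0.0189, limma). Nfatc4, a calcineurin-dependent factor, fell from 16.5 ± 0.689 to 8.06 ± 1.21 at day 14 (adjusted p = 0.00369, limma). The calls of Hdac7 and Camkk2 at day 7 were lost without any one of the 4 day 7 libraries, and that of Hdac7 at day 14 without either control library or LAMZ replicate 1 of that day. On both days, the Hdac7 call was also lost with libraries centred on the median and after quantile normalization.

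Among 34 tested partners and modifiers of the PGC-1 coactivators, 2 were called higher (5.88%) and 1 lower (2.94%) at day 7, and 3 higher (8.82%) and 7 lower (20.6%) at day 14 by limma. The medians were −0.06 and −0.13. Foxo1, a forkhead factor that PGC-1α coactivates in liver, rose from 2.77 ± 0.0591 to 8.13 ± 0.595 RPKM (SD, n = 2 each) at day 7 and from 3.58 ± 0.60 to 6.96 ± 1.19 (SD, n = 2 each) at day 14 (log2 changes 1.27 and 0.79, adjusted p = 0.00188 and 0.00798, limma). Fbxw7, a ubiquitin ligase subunit, rose at day 7 from 2.44 ± 0.325 to 4.55 ± 0.388 (adjusted p = 0.0177, limma). At day 14, Kat2b, an acetyltransferase, fell from 5.21 ± 0.985 to 2.18 ± 0.106 and Thra, a thyroid hormone receptor, from 26.6 ± 2.52 to 15.2 ± 0.903 (adjusted p = 0.00244 and 0.00737, limma). Of the other receptors of the ERR family, Esrrb and Esrrg stayed under an RPKM of 1 and were not tested. Leaving out a day 7 library ended the call of Fbxw7 (control replicate 2 or either LAMZ library), and leaving out a day 14 library ended those of Foxo1 (control replicate 1 or LAMZ replicate 2) and Thra (replicate 2 of either treatment).

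Downstream, the genes that maintain and transcribe mitochondrial DNA together with Tfam were mostly not called. None of 24 was called at day 7 by limma or by voom on recovered reads, and 3 were higher at an unadjusted p under 0.05. At day 14, 2 were called higher (8.33%) and none lower, with medians of 0.15 and 0.04. None was lower at an unadjusted p under 0.05 or by voom. Lonp1, the mitochondrial matrix protease that degrades Tfam protein, rose from 15.4 ± 0.756 to 31.6 ± 3.75 RPKM (SD, n = 2 each; log2 change 0.99, adjusted p = 0.00188, limma). Endog, a mitochondrial nuclease, rose from 4.81 ± 0.853 to 10.1 ± 1.97 (log2 change 0.93, adjusted p = 0.0127, limma), a call lost without replicate 1 of either day 14 group. The mitochondrial RNA polymerase gene Polrmt had a log2 change of −0.27 at day 7 and 0.18 at day 14, and the helicase gene Twnk one of 0.23 and 0.24, none of which was called.

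Of 42 tested genes known as targets of PGC-1 coactivators and ERR receptors, none was called higher and 4 were called lower (9.52%) at day 7 by limma, where 2 were higher at an unadjusted p under 0.05 and voom on recovered reads called 1 higher. At day 14, 3 were called higher (7.14%) and 8 lower (19.05%), shares near those of all tested genes. The medians were 0.01 and −0.02. No respiratory chain gene of the list was called by limma on either day, but Sdha, a subunit of succinate dehydrogenase (complex II), was called lower averaged over both days (−0.27 at day 7, −0.32 at day 14 and −0.30 on average, adjusted p = 0.0304). This call was lost without any one of 6 of the 8 libraries, the exceptions being day 14 control replicate 1 and day 14 LAMZ replicate 1. It was also lost with libraries centred on the median (adjusted p = 0.177, limma). Cox4i1, a subunit of cytochrome c oxidase, had log2 changes of 0.04 and 0.30 and Atp5b, the ATP synthase β subunit, 0.02 and 0.16 (adjusted p of 0.103 or above in all 4, limma). Cat, which encodes the peroxisomal enzyme catalase, fell from 27.7 ± 2.15 to 15.7 ± 0.872 RPKM (SD, n = 2 each) at day 7 and from 34.0 ± 1.88 to 12.0 ± 0.770 (SD, n = 2 each) at day 14 (adjusted p = 0.00516 and 0.00017, limma). Ucp2, an inner membrane carrier that leukocytes express strongly, fell from 2.90 ± 1.15 to 0.546 ± 0.0343 and from 4.44 ± 0.703 to 0.668 ± 0.424 (adjusted p = 0.0148 and 0.00257, limma). Cpt1a, the carnitine transferase of fatty acid import, fell at day 7 from 9.32 ± 0.0140 to 4.51 ± 0.128 (adjusted p = 0.00676, limma). At day 14, Cpt1a fell from 11.3 ± 1.17 to 4.77 ± 0.997 (adjusted p = 0.00169, limma), and Fndc5, the precursor of irisin, from 2.52 ± 0.160 to 0.347 ± 0.139 (adjusted p = 0.00737, limma). At day 14, Slc25a5 (an ADP/ATP carrier), Vegfa (a vascular growth factor) and Tomm20 (an outer membrane import receptor) were higher, with log2 changes of 0.55, 0.81 and 0.51. The day 7 calls of Cpt1a and Cat were lost without LAMZ replicate 1, and that of Ucp2 without control replicate 2 or either LAMZ library.

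Of 24 genes known as MEF2 targets, 13 passed the filter. At day 7, 3 were called higher (23.1%) and 1 lower (7.69%), and at day 14, 4 higher (30.8%) and none lower by limma, with medians of 0.01 and 0.31. At day 14, 2 were lower at an unadjusted p under 0.05 and by voom on recovered reads. Klf4, a Krüppel-like factor, rose at day 7 from 12.3 ± 3.50 to 25.4 ± 2.90 RPKM (SD, n = 2 each, adjusted p = 0.0121, limma), a call lost without LAMZ replicate 1. Runx2, the osteoblast factor that MEF2C is known to activate in cartilage, rose at day 7 from 8.86 ± 1.37 to 18.1 ± 0.736 (adjusted p = 0.00475, limma) and is also 1 of the 10 osteoblast markers. Jun, an immediate early gene, fell at day 7 from 15.8 ± 3.10 to 6.80 ± 0.163 (adjusted p = 0.00272, limma). Acta1, skeletal actin, rose at day 14 from 1.28 ± 0.434 to 20.7 ± 3.0 (log2 change 3.26, adjusted p = 0.00164, limma), and its reads could come in part from other actin genes, which are nearly identical in coding sequence. Des, the intermediate filament protein desmin, rose at day 14 from 1.58 ± 0.687 to 6.12 ± 0.393 (adjusted p = 0.00214, limma). Myom1, a sarcomere protein, rose at day 7 from 3.06 ± 0.494 to 6.27 ± 0.0161 and at day 14 from 8.23 ± 2.64 to 14.9 ± 0.790 (adjusted p = 0.0273 and 0.020, limma). Its day 7 call was lost without any one of the day 7 libraries, and its day 14 call without replicate 1 of either treatment or LAMZ replicate 2 of day 14. Of the 7 skeletal muscle markers, 2 were tested: Tnnt3 was called higher at day 7 (0.97, adjusted p = 0.0464, limma) but not at day 14 (0.34, adjusted p = 0.38), and Actn3 was called on neither day (−0.42 and −0.02, adjusted p = 0.138 and 0.952). The summed RPKM of the 7 markers was 4.30 to 7.74 over all libraries.

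Among 11 tested genes of mitochondrial dynamics and mitophagy, 2 were called higher (18.2%) and 3 lower (27.3%) at day 7, and 1 higher and 1 lower (9.09% each) at day 14 by limma. The medians were 0.04 and −0.27. Bnip3, a mitophagy receptor known to be induced by hypoxia, rose at day 7 from 26.5 ± 2.37 to 81.3 ± 5.07 RPKM (SD, n = 2 each; log2 change 1.58, adjusted p = 0.000248, limma) but not at day 14 (47.9 and 50.7 in control, 60.6 and 55.4 in LAMZ libraries; log2 change 0.23, adjusted p = 0.208). The difference between the days, −1.35, had an adjusted p of 0.0287 (limma), but this call was lost without any one of the 8 libraries (adjusted p 0.0522 to 0.127) and with no filter on low values (0.0778). Fis1 and Mief2, both of the fission machinery, fell at day 7 from 29.2 ± 5.78 to 19.0 ± 1.58 and from 5.0 ± 1.36 to 2.67 ± 0.118 (adjusted p = 0.0457 and 0.0326, limma), but both calls were lost without any one of the libraries other than day 7 control replicate 2. At day 14, Mtfr1, a fission regulator, rose from 3.17 ± 0.0409 to 5.43 ± 1.19 (adjusted p = 0.0217, limma). Bnip3l, a mitophagy receptor related to Bnip3, rose at day 7 from 12.9 ± 0.118 to 18.3 ± 0.820 and fell at day 14 from 19.0 ± 2.01 to 14.3 ± 0.366 (adjusted p = 0.0359 and 0.0475, limma), and the difference between the days was not called (−0.86, adjusted p = 0.0695, limma). Its day 7 call was lost without any day 7 library or either day 14 LAMZ library, its day 14 call without any one of the 8 libraries, and that of Mtfr1 without either control library or LAMZ replicate 1 of day 14.

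**Figure D4:**
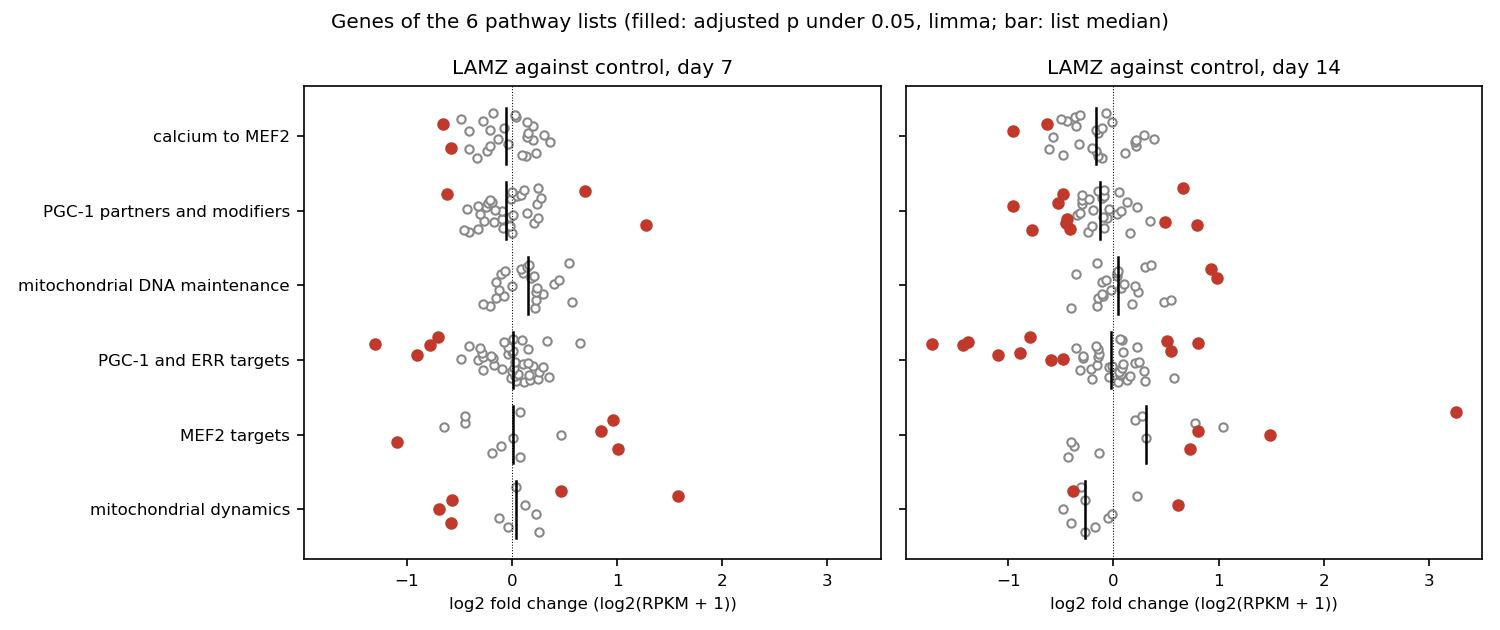
Log2 fold change on the log2(RPKM + 1) scale (x axis) of LAMZ against control at day 7 (left) and day 14 (right) for the tested genes of 6 pathway lists (y axis), with filled red points for an adjusted p under 0.05 in limma, open points for the rest and a bar for the median of each list. Most points are open and lie near 0, and the point farthest right is Acta1 at day 14 (3.26).

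The genes whose pattern over the 8 libraries was most like that of Mef2c were Bhlhe40, a clock-linked repressor (Pearson r of log2(RPKM + 1) 0.993), Raph1, a binding partner of the actin regulators of the Ena/VASP family (0.991), and Srgap1, a GTPase-activating protein (0.991). At day 7, Bhlhe40 went from a mean RPKM of 10.7 in control to 33.7 in LAMZ libraries, and at day 14 from 16.3 to 30.1. The correlations describe 8 libraries that fall into 4 groups, so they reflect the group levels and were not tested.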

How the data were processed

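Total RNA from mouse osteoblast progenitors was sequenced in 8 libraries, grouped by the sample labels. The authors sequenced on an Ion Proton, assigned reads to genes with CLC Genomics Workbench (version not given in the sources used here) and deposited the RPKM of each gene symbol. The submitters' processing notes name mm10, the same assembly as GRCm38. Each file was scaled within its own library. Symbols that had become dates (4 entries per file) were left out. Of the 51822 symbols kept, 47465 matched GENCODE M21.

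Mapped reads were set to the number at which RPKM values of single-exon genes up to 20 reads became whole reads within 0.05, which 96.2% to 97.4% of 693 to 1158 values per library did. The reads of each member came from its annotated exon length or, for Pprc1, Mef2a, Mef2c and Esrra, from the smallest length giving whole reads in all 8 libraries. A floor of 3 reads was used. Ratios of summed reads have exact 95% binomial intervals. Genes reaching an RPKM of 1 in 2 or more libraries (12514) were fitted as log2(RPKM + 1) in limma 3.58.1 (R 4.3.3; lmFit, eBayes with trend) as 4 groups with 4 residual degrees of freedom, and p-values were adjusted over all of them (Benjamini-Hochberg). A gene was called at an adjusted p under 0.05. The procedure was run on simulated data with 1 spread for all genes and changes drawn alike in both directions. That setting differs from these data, so it does not measure the error of the calls made here. Tables were read with Python 3.11.15, pandas 2.3.3 and SciPy 1.17.1.

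The members and the lists were chosen with earlier results of these data known. Named were all members, up to 3 called genes with the largest change per list and day whose treatments did not overlap, and the 3 genes most correlated with each called member. A gene that this rule selected is counted in its list but not reported here. Genes given beyond this rule (Polrmt, Twnk, Cox4i1, Atp5b, Slc25a5, Vegfa, Tomm20, Esrrb, Esrrg, Bnip3 and Cpt1a at day 14, Sdha, Tek, Tnnt3, Actn3, Lyz2, and Myom1 and Bnip3l at day 7) were chosen after their values were seen. Promoter windows are RefSeq's. Alternatives covered pseudocount, filter, scaling, replicate block, libraries used, trend, voom on recovered reads and leaving out each library. The scaling to reads on protein-coding genes was added after seeing the data.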

Additional observations from a re-analysis of the deposited data

Results flagged for a closer look

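The change of Bnip3 with LAMZ differed between the days. It was 1.58 at day 7 and 0.23 at day 14 on the log2(RPKM + 1) scale, and the difference of −1.35 (SE 0.169) passed the threshold (adjusted p = 0.0287, limma), where 0.623% of all tested genes did. It kept its sign under all 20 alternatives and its call under 8: the call was lost without any one of the 8 libraries (adjusted p 0.0522 to 0.127), with no filter on low values (0.0778), with no mean-variance trend (0.0511) and with either replicate block (0.0577 and 0.116). In control cells, Bnip3 was 24.8 and 28.2 RPKM at day 7 and 47.9 and 50.7 at day 14. In LAMZ-treated cells, it was 84.9 and 77.7 at day 7 and 60.6 and 55.4 at day 14.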

How the results depend on the processing

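At 3463538 to 5832101 mapped reads a library, Ppargc1a and Ppargc1b had at most 11 reads each. The counting intervals of their ratios of LAMZ to control reached to both sides of 1, except for Ppargc1a at day 14 and over both days, where they lay above 1. Mef2c kept its call at day 7 in all 21 alternatives, at day 14 in 18 of 21 and on average in 20 of 20. Same-numbered libraries showed little shared deviation in their values: the correlation of deviations between them ran from −0.0342 to 0.0776. These correlations cannot show whether same-numbered libraries came from the same culture or batch. With the replicate block across all groups, Mef2c had 1.49 at day 7 (adjusted p = 0.0023, limma) and 0.78 at day 14 (adjusted p = 0.0153, limma), and within each day 0.00529 and 0.0272, and the block changed no call of a member. It moved the count of all genes called at day 7 from 1607 to 984 (within each day) and that for the difference between the days from 78 to 17 and 7.

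The number of members called, 1 at day 7 and at day 14, ranged without one library from 1 to 2 and from 0 to 1. At day 14 it was 0 with libraries rescaled to the same sum and 2 centred on the median. On average it was 1, and 4 at the same sum, 3 centred on the median, 2 with voom and 1 to 3 without one library. Between the days in control cells it was 1, and 0 with no filter, 2 at the same sum, 0 with the 4 libraries alone, 3 with voom and 0 without any one library. In LAMZ-treated cells it was 0, and 1 with a filter of RPKM 3, at the same sum, centred on the median, after quantile normalization and with voom.

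Signs of small uncalled changes turned. At the same sum, day 7 gave −0.248 for Pprc1, −0.0466 for Mef2a and −0.136 for Gabpa, and day 14 gave −0.0838 for Pprc1, −0.324 for Mef2a, −0.0749 for Mef2d and −0.205 for Gabpa, and Mef2c between the days with LAMZ was 0.0426. At day 14, Esrra, Nrf1 and Tfam were 0.0396, 0.0938 and 0.171 centred on the median and 0.0265, 0.129 and 0.198 after quantile normalization. With reads on protein-coding genes, Pprc1 at day 7 was −0.00782 and Mef2a at day 14 −0.0319. Without one library, Pprc1 at day 7 ran from −0.0421 to 0.071, Esrra at day 7 from −0.511 to 0.217, and at day 14 Mef2a from −0.0902 to 0.13, Gabpa from −0.0116 to 0.211 and Tfam from −0.245 to 0.207. The cause of these turns was not tested. The noncoding RNA Rn7s1 held 18.1% to 33.7% of the RPKM sum, which the same-sum scaling divides by.

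Over all tested genes, 1607 were called at day 7, and 951 with no filter, 3592 at the same sum, 624 with the 4 libraries alone and 527 to 1383 without one library. At day 14, 2878 were called, and 5796 at the same sum and 1512 to 3087 without one library. On average, 3686 were called, and 7207 at the same sum. For the difference between the days, 78 were called, and 34 and 166 with pseudocounts of 0.1 and 5, 0 with no filter, 124 with a filter of RPKM 3, 30 with no trend, 335 with voom and 0 to 21 without one library. Between the days in control cells, 608 were called, and 203 with no filter, 1135 at the same sum, 0 with the 4 libraries alone, 1047 with voom and 69 to 453 without one library. In LAMZ-treated cells, 1797 were called, and 1091 with no filter and 488 to 1890 without one library. Of the 29 calls of named pathway genes, 12 held under every alternative and 0 changed sign. Centred on the median, the calls lost were those of Hdac7 on both days, Fis1 at day 7 and Bnip3l at day 14. At the same sum, they were those of Myom1 and Mtfr1 at day 14. With annotated exon lengths in place of the solved ones, the summed reads would be 1258.3 for Pprc1 (1505 used), 7438.5 for Mef2a (5309), 6245.7 for Mef2c (4549) and 882.9 for Esrra (511).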
